A study of Mus musculus with 15 samples.

Results

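Hepatocyte chromatin of young mice lacking Ezh1 and Ezh2 was set directly against that of grown wild-type mice, using 10 of the 15 samples of the study, which were chosen by genotype and age. The 5 knockout samples came from mice of genotype Alb-Cre;Ezh1-/-;Ezh2f/f taken on postnatal day 14 (P14), with 3 females and 2 males. The 5 other samples came from wild-type (Wt) mice aged 2 months, with the same numbers of each sex. In the knockout, Ezh1 is lost in every tissue, whereas Ezh2 is removed only where Cre is made from the albumin promoter, which is active in hepatocytes. The remaining 5 samples, from P14 wild-type mice (2 females and 3 males), are used here only as a reference beside the pair. The pair differs in age and in genotype, and also in the perfusion volume and catheter size used for each age, so these cannot be told apart from the pair alone. Nor does the P14 wild-type map separate age from perfusion, since perfusion followed age. Whatever stands in the 2-month map alone below may therefore go with either.

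The assay, srHC-seq, rests on the resistance of compact chromatin to sonication: crosslinked chromatin is sheared, and long fragments are separated from short ones and sequenced. Ezh1 and Ezh2 are the alternative catalytic subunits of PRC2, a complex that methylates lysine 27 of histone H3 and is known for keeping developmental genes silent. In the liver it is known to hold back part of the gene programme of mature hepatocytes until after birth. Heterochromatin is the compact form of chromatin, mostly silent, and euchromatin the open form in which most active genes lie.

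For each group the submitters deposited 1 map, made from its samples together, that assigns the mm9 genome, with 2 gaps in the knockout map, to one of the classes het, the closed one, euch, the open one, and int, which lies between. The 3 groups thus gave 3 maps. The maps carry no read counts, so the depth is unknown, and with 1 map per group no difference below has a replicate check, an error or a p-value. Neither bins nor windows are replicates. All values are for the autosomes unless chromosome X is named. Genes are not named, because the gene tables at hand are for GRCm38, another build. The cell type and the loss of Ezh1 and Ezh2 were not checked here, since the maps hold chromatin classes and neither reads nor RNA.

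On 2 kb bins, the young knockout and the grown wild type had the same class in 76.8% of 1236182 autosomal bins and another class in 23.2%. The differences ran both ways in nearly equal amounts. At 2 months 11.7% of bins were more open than in the knockout and 11.5% were more closed. Outright exchanges were also balanced: 122.8 Mb were het in the knockout and euch at 2 months, and 120.5 Mb were euch in the knockout and het at 2 months. The class totals were close as well. Het covered 46.0% of bins in the knockout and 46.2% at 2 months, euch 42.4% and 43.0%, and int 11.5% and 10.8%. How the class totals of each map were set is not given in the sources used here.

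Of the 3 classes, int was the least shared. Of knockout int bins, 38.9% were int at 2 months, 33.1% were het and 28.1% were euch. Much of the shared int lay in large blocks. Of the 110.9 Mb that were int in both maps, 72.8 Mb lay in 32 runs of at least 100 kb that were int in all 3 maps. Outside these runs the share of knockout int bins that stayed int was therefore lower than 38.9%. Of knockout het bins, 81.6% were het at 2 months, and of knockout euch bins, 82.0% were euch. Most differing bins lay near an edge of a knockout domain. Bins within 4 kb of a knockout domain edge made up 30.0% of all bins and 66.0% of those that differed. Away from these edges 11.3% of bins differed, and 4.67% did when bins near an edge of either map were left out. Each differing stretch begins and ends at an edge of at least 1 map, so nearness to edges is partly built into all these values. The value of 4.67% therefore counts only differing stretches longer than 8 kb.

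The P14 wild-type map, which is no part of the pair, shows on which side of each difference the young wild type stood. It had the class of the knockout in 44.7% of the differing bins, the class of the 2-month map in 32.8%, and a class of its own in 22.5%. The first share is what the 2-month map holds and neither young map does, and the second is what the knockout map alone holds. A class that stands in 1 map alone has no second map of its group to be checked against.

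The 2-month map alone was open, with both young maps closed, over 69.6 Mb, which was 56.7% of the bins that were het in the knockout and euch at 2 months. It alone was closed, with both young maps open, over 59.0 Mb, 48.9% of the bins exchanged in that direction. The knockout alone was closed, with both wild types open, over 34.5 Mb, or 28.1% of the first kind of exchange. It alone was open, with both wild types closed, over 43.8 Mb, or 36.3% of the second kind. Thus the young wild type stood with the knockout more often than with the grown wild type in both directions of exchange between het and euch, and the knockout alone was open over more bases than it alone was closed. The same order held for bins that were het in the knockout and int at 2 months, of which 66.4% were het in the P14 wild type, and for bins that were euch in the knockout and int at 2 months, of which 58.3% were euch there. It was reversed for bins that were int in the knockout. Where these were het at 2 months, the P14 wild type was het in 54.1% and int in 15.7%, and where they were euch at 2 months, it was euch in 46.1% and less often int.

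**Figure D1:**
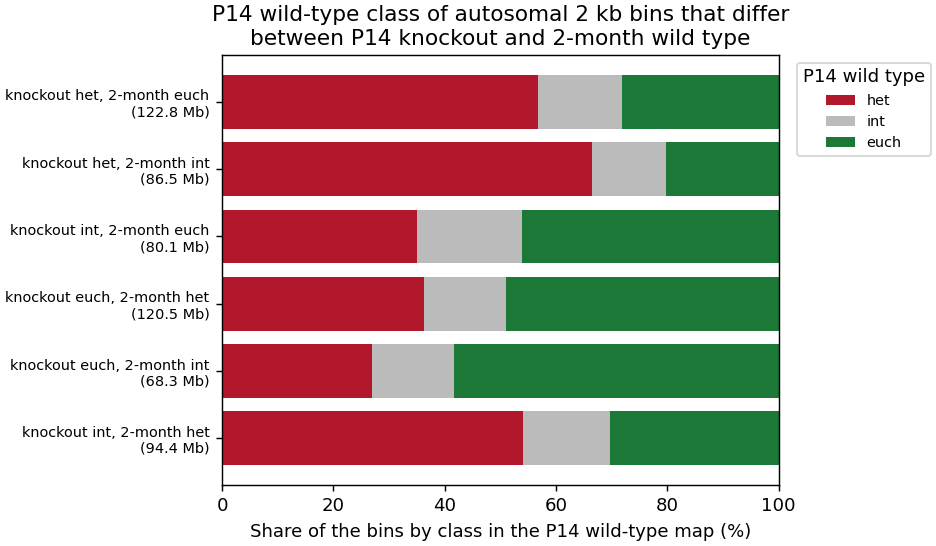
Each bar is one kind of class difference between the knockout and the 2-month map, with its extent in Mb at the left; colours give the class of the same bins in the P14 wild-type map, as a share in percent. Of bins that were het in the knockout and euch at 2 months, 56.7% were het in the P14 wild type and 28.1% were euch, and of the reverse exchange 48.9% were euch and 36.3% het.

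Stretches of at least 20 kb were rare, but more frequent where the 2-month map alone stood apart than where the knockout alone did. Among 12281 stretches open only at 2 months, 192 reached 20 kb, and among 10837 closed only at 2 months, 108 did. Of 7779 stretches closed only in the knockout, 19 reached 20 kb, and of 9442 open only in the knockout, 25 did. The median was 4 kb in all 4 patterns, so most stretches of either kind were short. On chromosome 5 lay the longest stretch open only at 2 months, 62 kb from 114638001 to 114700000. It was followed by 60 kb on chromosome 10, from 10536001 to 10596000, and 58 kb on chromosome 12, from 29776001 to 29834000. The longest closed only at 2 months was 42 kb on chromosome 1, from 51120001 to 51162000, then 40 kb on chromosome 4, from 28858001 to 28898000. The longest closed only in the knockout was 30 kb on chromosome 12, from 106860001 to 106890000. The 5 longest open only in the knockout were all 26 kb, among them chromosome 11 from 96222001 to 96248000 and chromosome 6 from 55428001 to 55454000.

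Without regard to the P14 wild type, the longest exchange of all was a stretch of 112 kb on chromosome 12, from 29620001 to 29732000, that was het throughout in the knockout and euch throughout at 2 months. In the P14 wild type 73.2% of it was het. Another such stretch of 66 kb followed it, from 29768001 to 29834000, with 87.9% het in the P14 wild type. The longest exchange in the other direction lay on the same chromosome, from 28950001 to 29008000. These 58 kb were euch in the knockout, het at 2 months and 86.2% het in the P14 wild type. So within 1 Mb of chromosome 12 the knockout was open where both wild types were mostly closed, and the 2-month map was open where both young maps were mostly closed. Of the 10 longest stretches from het in the knockout to euch at 2 months, which ran from 44 to 112 kb, 7 were at least 50% het in the P14 wild type and 2 were at least 50% euch. Of the 10 longest from euch to het, from 42 to 58 kb, 7 were at least 50% euch and 2 at least 50% het.

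**Figure D2:**
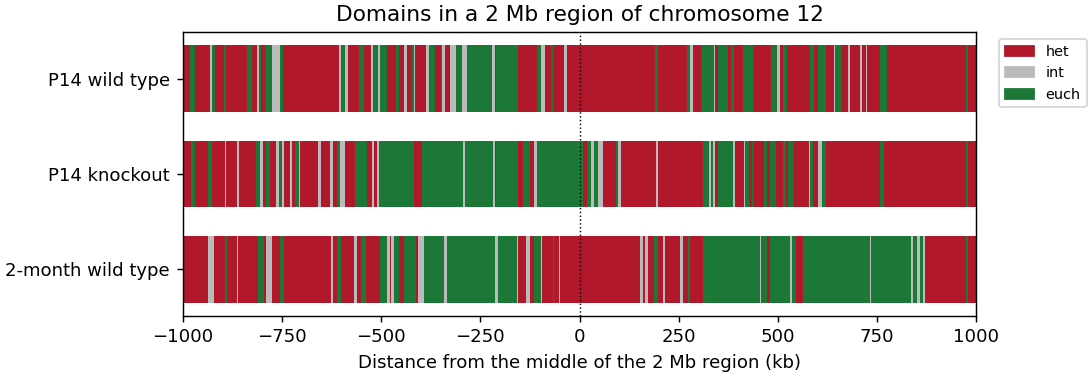
Domains of the 3 maps over 2 Mb of chromosome 12, with distance in kb from the middle of the region; red is het, grey int and green euch. Left of the middle the knockout has a euch domain of 114 kb where both wild types are largely het, and at the right the 2-month map has euch domains of 170 and 100 kb where both P14 maps are largely het.

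Whole domains of 1 map could be missing from the other. Of 2-month het domains, 3747 of 28510, or 13.1%, had no het base in the knockout, and of 2-month euch domains 4332 of 25999, or 16.7%, had no euch base there. The reverse was more frequent. Of knockout het domains, 9131 of 38014, or 24%, had no het base at 2 months, and of knockout euch domains 10189 of 36222, or 28.1%, had no euch base. The knockout has more and shorter domains, and short domains were the ones missing. Under 10 kb, 50.6% of knockout het and 51.5% of knockout euch domains were missing at 2 months, against 33.0% and 35.6% of 2-month domains in the knockout. From 50 kb up, 25 of 10447 knockout domains and 11 of 10962 2-month domains of both classes together were missing from the other map.

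Domains missing from the other map differed in their relation to the young wild type. Of 2-month euch domains missing from the knockout, 58.8% had no euch base in the P14 wild type either, and of 2-month het domains 46.0% had no het base there. Of knockout domains missing at 2 months, 38.7% of euch and 32.5% of het domains were missing from the P14 wild type too. In contrast, 51.5% of those euch and 58.5% of those het domains covered a stretch with at least 50% of its bases in the same class in the P14 wild type. Knockout domains missing at 2 months were thus more often at least 50% present in the young wild type than absent from it. Those euch domains under 10 kb were an exception, with 48.5% missing from the P14 wild type and 47.4% at least 50% euch there. Of the missing 2-month domains, 31.4% of euch and 41.6% of het were at least 50% of that class in the P14 wild type.

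Of the 2-month domains missing from the knockout, the longest of euch were 60 kb each. That on chromosome 10, from 10536001 to 10596000, was het throughout in both young maps. That on chromosome 19, from 12096001 to 12156000, was 50.0% het and otherwise int in the knockout, but 63.3% euch in the P14 wild type. A euch domain of 58 kb on chromosome 6, from 112850001 to 112908000, was 82.8% het in the knockout, and 72.4% het and 20.7% euch in the P14 wild type. The longest het domain was 94 kb on chromosome 1, from 152580001 to 152674000, which was 78.7% euch in the knockout, and 63.8% euch and 14.9% het in the P14 wild type. Another of 54 kb on chromosome 2, from 140934001 to 140988000, was euch throughout in the knockout. Of the knockout domains missing at 2 months, the longest of het was 138 kb on chromosome 12, from 29620001 to 29758000. It was 98.6% euch at 2 months and 78.3% het in the P14 wild type. Next was 82 kb on chromosome 18, from 13172001 to 13254000, which was 70.7% int at 2 months and 97.6% het in the P14 wild type. The longest euch domain was 94 kb on chromosome 2, from 42180001 to 42274000, where 80.9% was het at 2 months and 40.4% was euch in the P14 wild type. These 3 knockout domains were thus partly or mostly present in the young wild type as well.

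Long domains were more frequent in the grown map than in the knockout. Domains of at least 200 kb carried 25.5% of het bases at 2 months and 17.9% in the knockout. For euch the shares were 31.8% and 15.9%. The N50, a length such that domains at least as long hold 50% of a class, was 84 kb for het and 112 kb for euch at 2 months, and 54 and 62 kb in the knockout. In the P14 wild type it was 46 and 52 kb. The knockout thus lay nearer to the young than to the grown wild type in the N50, most clearly for euch. At 500 kb and more there were 86 euch domains at 2 months, 15 in the knockout and 17 in the P14 wild type, and 128, 74 and 51 het domains in the same order. At 1000 kb and more the knockout had nearly as many het domains as the grown map, 14 against 15, and the P14 wild type had 2. The depth behind each map is unknown, and its part in domain length was not tested.

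**Figure D3:**
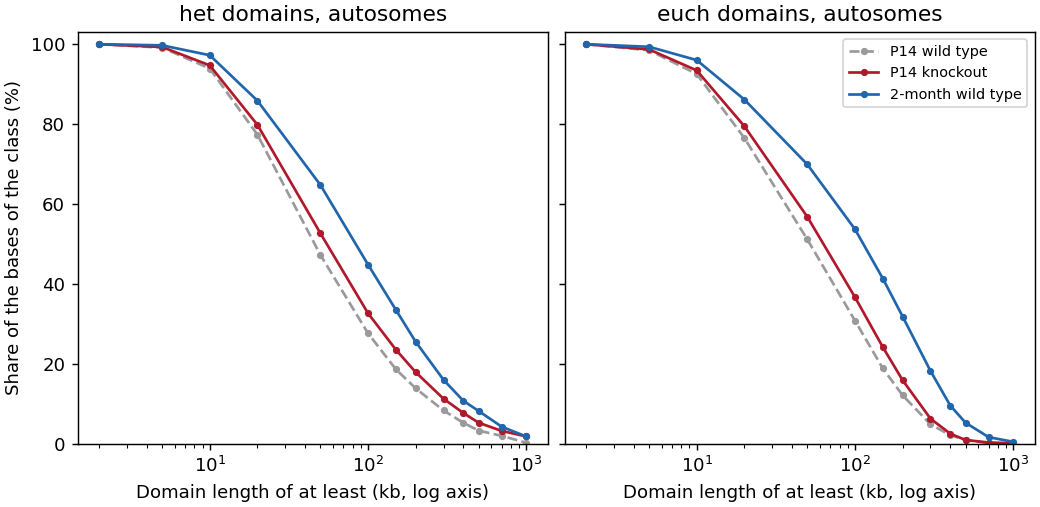
Share of the autosomal bases of a class (percent) that lie in domains of at least the length on the x axis (kb, log axis), for het at the left and euch at the right. At 200 kb the 2-month curve stands at 25.5% for het and 31.8% for euch, and the knockout curve at 17.9% and 15.9%, above the P14 wild type in both.

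The ground of the long 2-month domains was mostly of the same class in the knockout, but broken up. The 824 long het domains at 2 months were 93.6% het in the knockout, and the 1064 long euch domains were 91.0% euch. Yet 76.2% of the former and 86.3% of the latter held at least 2 separate pieces of that class in the knockout, with a median of 3. The breaks were short. Inside long 2-month euch domains the knockout had 2031 pieces of het, with a median of 6 kb and a longest of 54 kb, and inside long 2-month het domains it had 1177 pieces of euch, also with a median of 6 kb. Of the long 2-month euch domains, 17.7% held no het in the knockout, and of the long het domains 37.0% held no euch. Knockout domains of that length were less broken at 2 months. Of the 591 long knockout euch domains, 78.2% held no het at 2 months, and of the 572 long het domains 61.7% held no euch. The counts of pieces rest on domains chosen as unbroken in 1 map, which by itself makes the other map look more broken, so each direction is to be read beside the other.

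The very longest 2-month domains differed by class: euch was in several pieces in the knockout, whereas 4 of the 5 longest het domains were in 1 piece. The longest euch domain, 1398 kb on chromosome 19 from 36390001 to 37788000, was 92.8% euch in the knockout, in 12 pieces. That on chromosome 16 from 23944001 to 25190000, 1246 kb long, was 98.1% euch in 3 pieces, and overlapped the longest euch domain of the knockout, 1086 kb from 23952001 to 25038000. The longest het domain, 2628 kb on chromosome 7 from 32134001 to 34762000, was het throughout in the knockout, and the next, 2128 kb on chromosome 14 from 3430001 to 5558000, was 99.9% het. A few long domains were hardly present in the knockout. The euch domain of 212 kb on chromosome 11 from 27732001 to 27944000 was 23.6% euch and 57.5% het in the knockout. That of 248 kb on chromosome 16 from 11492001 to 11740000 was 24.2% euch and 61.3% het. In the P14 wild type these were 20.8% and 33.9% euch. Conversely, a knockout het domain of 276 kb on chromosome 10 from 10366001 to 10642000 was 31.2% het and 54.3% euch at 2 months, and 76.1% het in the P14 wild type. A knockout euch domain of 234 kb on chromosome 2 from 140830001 to 141064000 was 35.9% euch at 2 months and 86.3% euch in the P14 wild type.

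Over windows of 1 Mb, openness was scored as the share of bins in euch minus the share in het, from -1 (closed throughout) to 1 (open throughout). The knockout and 2-month scores of 2473 windows had nearly the same mean, -0.036 and -0.032, with SDs of 0.458 and 0.525 across windows. The difference, 2 months minus knockout, had a median of 0.014, an interquartile range from -0.096 to 0.12 and an SD of 0.195, and was at most 0.1 in size in 46.5% of windows. Windows with neither het nor euch in any map, such as those up to position 3000000 of chromosome 1, score 0 in each map. They are counted here and in the values for all windows below. A difference of more than 0.3 was called. The score was higher at 2 months in 113 windows (4.57%) and lower in 177 (7.16%). The smallest called difference was 0.302 in both directions and the largest not called was 0.3. Past 0.5 there were 18 higher (0.728%) and 45 lower windows (1.82%). The calls depend on window size: 0.607% were higher and 3.04% lower with windows of 5 Mb, and 7.22% and 9.26% with windows of 500 kb. They also rest on bins near domain edges, since without bins within 4 kb of an edge of either map 25 windows were higher and 50 lower. Without the 32 shared runs of int, 2401 windows were left, of which 4.71% were higher and 7.37% lower.

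**Figure D4:**
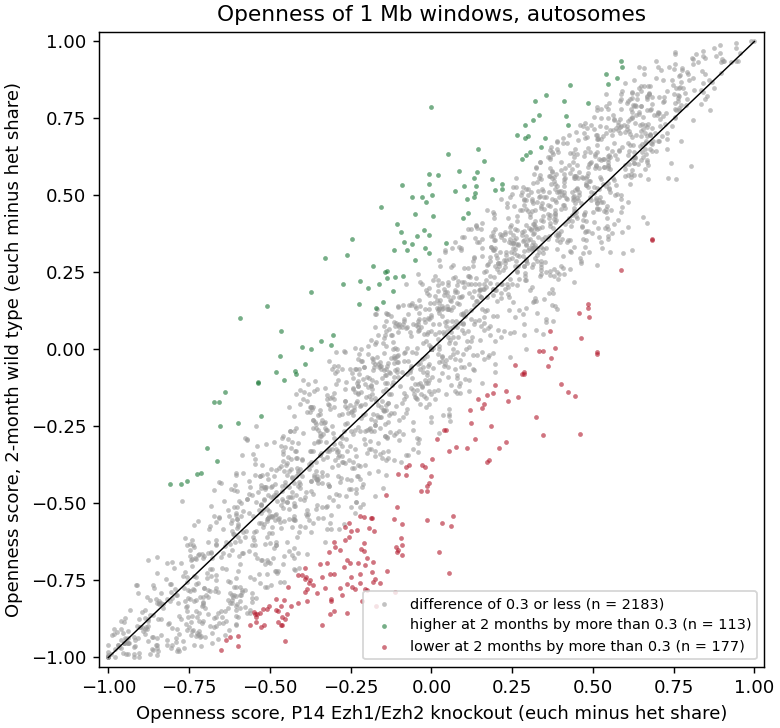
Each point is an autosomal window of 1 Mb, with its openness score in the P14 knockout on the x axis and at 2 months on the y axis; the line marks equal scores. Green points, 113 windows, are higher at 2 months by more than 0.3 and red points, 177 windows, lower by more than 0.3.

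Called windows of either direction often stood alone, and the longest blocks of neighbours were of windows more closed at 2 months. The 177 lower windows formed 114 runs of neighbours, of which 80 were single windows and 34 held at least 2, with a longest run of 8. The 113 higher windows formed 97 runs, of which 84 were single windows, and no run was longer than 3. The run of 8 was on chromosome 14 from 91000001 to 99000000, with a mean score of -0.125 in the knockout, -0.583 at 2 months and 0.132 in the P14 wild type. The next was on chromosome 2 from 41000001 to 48000000, with 0.169, -0.248 and 0.391 in that order. The means were -0.079, -0.581 and 0.136 on chromosome 5 from 56000001 to 62000000. They were -0.127, -0.532 and 0.115 on chromosome 3 from 44000001 to 50000000. In each of these 4 blocks the knockout lay between the wild types. The runs of 3 higher windows were on chromosome 2 from 175000001 to 178000000, on chromosome 8 from 117000001 to 120000000 and on chromosome 11 from 111000001 to 114000000.

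The largest single fall was on chromosome 2 from 46000001 to 47000000. The score was 0.054 in the knockout and -0.726 at 2 months, with 460 kb of euch in the knockout and 88 kb at 2 months. The P14 wild type, at 0.338, was the most open of the 3. The score went from 0.024 to -0.656 on chromosome 5 from 84000001 to 85000000, and from -0.114 to -0.788 on chromosome 3 from 124000001 to 125000000. In 38 of the 177 lower windows the P14 wild-type score was within 0.1 of the knockout. On chromosome 5 from 132000001 to 133000000 the score was 0.46 in the knockout, 0.448 in the P14 wild type and -0.274 at 2 months, and on chromosome 2 from 78000001 to 79000000 it was 0.344, 0.43 and -0.278. The 10 largest falls lay on 7 chromosomes and ranged from -0.78 to -0.598, with the knockout in the middle in 9 of them.

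Chromosome 16 held the largest rise, from 11000001 to 12000000, where the score was -0.002 in the knockout, -0.008 in the P14 wild type and 0.788 at 2 months. Het covered 452 kb of this window in both young maps and 80 kb at 2 months. On chromosome 12 from 29000001 to 30000000, the window that holds the 112 kb stretch, the scores were -0.592, -0.568 and 0.102. On chromosome 19 from 49000001 to 50000000 they were -0.508, -0.296 and 0.142, so here the knockout was the most closed of the 3. The knockout score of -0.092 on chromosome 9 from 109000001 to 110000000 compared with 0.534 at 2 months, and that of -0.33 on chromosome 7 from 151000001 to 152000000 with 0.296. The 10 largest rises lay on 10 chromosomes and ranged from 0.57 to 0.79, with the knockout in the middle in 7.

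The P14 wild-type score was nearer to the knockout than to the 2-month score in 171 of the 177 lower windows and in 104 of the 113 higher ones, against 75.1% of all windows. These windows were picked for a large distance between knockout and 2 months, and the 2-month scores spread most, so a high share is built in. The knockout took the middle place less often in higher than in lower windows. Of the higher windows, 58 had a P14 wild-type score within 0.1 of the knockout, and the knockout lay between the wild types in 64. Of the lower windows 38 had such a score, and the knockout lay between the wild types in 153. Over all 2473 windows, 1097 had a P14 wild-type score within 0.1 of the knockout, and the knockout lay between in 65.4%. Whether the 2 directions differ beyond the error of the maps was not tested.

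Called windows in which the knockout alone stood apart were few. Over all 2473 windows, 661 had a P14 wild-type score within 0.1 of the 2-month score. Among the called windows only 4 had such a score. In 3 of them the knockout was the more open. On chromosome 11 from 96000001 to 97000000 the score was 0.514 in the knockout, -0.04 in the P14 wild type and -0.008 at 2 months, and the euch extent was 714, 450 and 444 kb. On chromosome 6 from 53000001 to 54000000 the scores were 0.288, 0.006 and -0.072, and on chromosome 12 from 28000001 to 29000000 they were 0.158, -0.262 and -0.19. In the fourth window, on chromosome 1 from 5000001 to 6000000, the knockout was the more closed, with -0.756 against -0.456 and -0.426.

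By the share of bins, the 2-month map alone stood apart in a median of 9.8% of a window and the knockout alone in 7.4%. The former share was larger in 1696 windows and the latter in 658. Windows with more than 20% of bins apart numbered 129 for the 2-month map and 1 for the knockout. The highest share for the 2-month map was 35.2%, on chromosome 5 from 132000001 to 133000000. That for the knockout was 20.4%, on chromosome 19 from 31000001 to 32000000, where the P14 wild-type score was 0.298, the knockout 0.066 and the 2-month map 0, so this window was not called. Of the 5 windows with the highest knockout share, 3 were called. In neighbouring windows near the end of chromosome 2 the P14 wild type was nearer to the 2-month map, as in 9 of the 113 higher windows. From 176000001 to 177000000 the knockout alone stood apart in 19.4% of bins, and its score was -0.06 against 0.336 in the P14 wild type and 0.496 at 2 months. From 175000001 to 176000000 the scores were 0.05, 0.396 and 0.634. In both windows the knockout was the most closed map and the P14 wild type took the middle place, as it did in 49 of the 113 higher windows.

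Sorting windows by their P14 wild-type score, which does not enter the difference, showed spread rather than a common trend. The windows were put in 5 sets of nearly equal size. In the set most closed at P14, the mean difference, 2 months minus knockout, was 0.030, in the middle set -0.030 and in the most open set 0.017. Within each set, however, 2-month scores varied more. In the middle set the SD across windows was 0.354 at 2 months and 0.209 in the knockout, and in the fourth it was 0.383 and 0.215. Windows of like openness in the young wild type thus lay further apart at 2 months than in the knockout. The middle set also holds the windows with neither het nor euch. These score 0 in each map and so make its mean difference and SDs smaller. Scores above 0.5 were found in 469 windows at 2 months, 363 in the knockout and 268 in the P14 wild type, and scores below -0.5 in 572, 458 and 330. Called falls were spread over all sets but the most closed one, which held 1 of 177. The mean knockout score of that set was -0.624, on a scale that ends at -1. Whether the end of the scale limits falls there was not tested.

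By chromosome, the 2-month map was more open than the knockout on 12 autosomes and more closed on 7, by the mean window score. Chromosome 19 had the largest mean difference, 0.128, and none of its 61 windows was called lower. Its euch share was 53.4% in the knockout and 60.0% at 2 months, and 49.0% in the P14 wild type. Chromosomes 17 and 11 followed with 0.057 and 0.051. Chromosomes 1 and 3 were lower at 2 months by a mean of -0.056 each. Chromosome 14 had called windows in both directions: 24 of 125 were lower, or 19.2%, and 10 were higher, or 8.0%, against 7.16% and 4.57% over all autosomes. Of 124 windows of chromosome 9, 1 was lower and 3 were higher. The share of bins with another class ran from 18.1% on chromosome 7 to 25.3% on chromosome 5.

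On average, windows at both ends of the autosomes were more open at 2 months than in the knockout. In the 95 windows from position 3000001 to 8000000 of each autosome, next to the centromere, the mean score was -0.146 in the knockout, -0.044 at 2 months and -0.093 in the P14 wild type, and 14.7% of windows were called higher. In the 105 windows of the last 5 Mb the means were -0.055, 0.027 and -0.109, and 10.5% were called higher. In the 2216 windows between these ends the means were -0.031 and -0.035, and 3.97% were called higher. The knockout was thus the most closed map beside the centromere, whereas at the far ends it lay between the wild types.

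**Figure D5:**
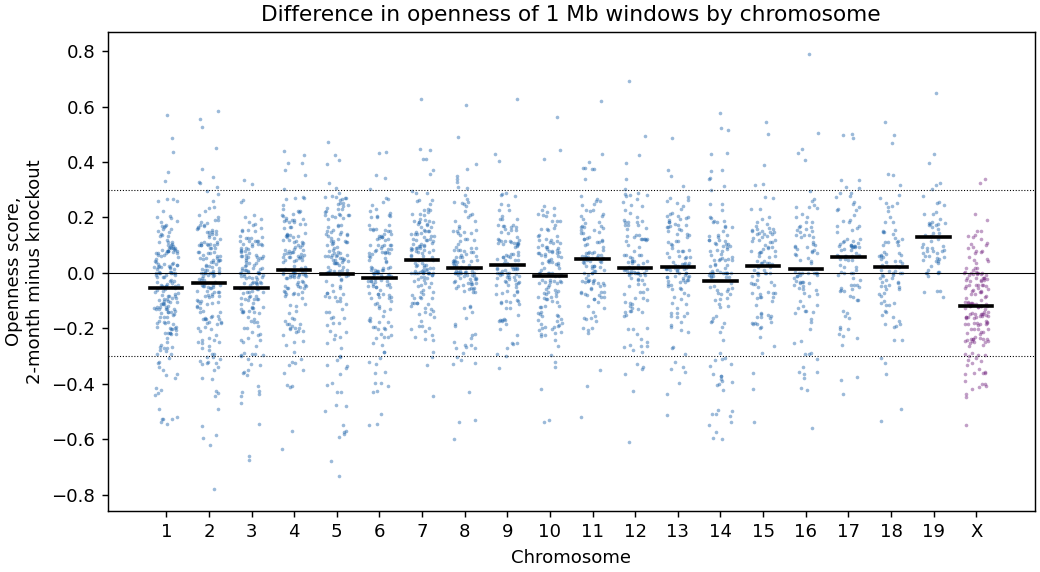
Each point is a window of 1 Mb, with the difference in openness score (2-month minus knockout) on the y axis and the chromosome on the x axis; black bars are means over windows and dotted lines mark 0.3 and -0.3. The mean is highest on chromosome 19, at 0.128, and lowest on chromosome X, at -0.120.

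Chromosome X was more closed at 2 months than in the knockout. Euch covered 50.7% of its bins in the knockout and 43.6% at 2 months, and het 36.7% and 41.7%. Of its bins, 18.5% were more closed at 2 months and 10.7% more open, a net of -7.86 percentage points, whereas the net was 0.250 points on the autosomes. The 2 pools held the same numbers of males and females, though how many reads each animal gave to its pool is unknown. Another class was found in 29.2% of X bins, above the range of the autosomes. The mean window difference was -0.120, and 133 of 167 windows were lower at 2 months. Of these windows 20 (12%) were called lower and 2 (1.2%) higher. The largest fall was between 129000001 and 130000000, where the score was 0.14 in the knockout, -0.052 in the P14 wild type and -0.41 at 2 months. The mean score of X was 0.117 in the P14 wild type, nearer to the knockout at 0.140 than to the 2-month map at 0.021, but that pool held 3 males and 2 females, against 2 and 3 in the others, and the part of sex was not tested. In bins that were euch in the knockout and het at 2 months, 52.7% were euch in the P14 wild type.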

How the data were processed

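Long and short fragments of sonicated, crosslinked hepatocyte chromatin were sequenced, per the labels' protocols. Per the submitters' processing notes, bcl2fastq 2.19.0.316, STAR 2.4.2a and bedtools were used, with build mm9. The domain caller and its thresholds are not given in the sources used here. The deposited lists hold a class letter for each interval, with a score of 0 throughout, and so no signal. Each list was read as a pool of its group, because the sample descriptions name it, except that the euch list at 2 months is named by 4 of 5 samples.

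Of the 9 lists, 6 form the pair. Maps were read in 2 kb bins with Python 3.11.15, NumPy 2.4.6 and pandas 2.3.3, and figures drawn with Matplotlib 3.10.9. Functions were tested on simulated data. Windows with at least 50% of 1 Mb were used. Named were the 10 largest window differences and longest exchanged stretches in each direction, and the leading domains and windows of each other kind, of which some are printed. The comparison, thresholds and lists were chosen with earlier results of these data known. Gene lists, promoters and sequences were not used here, since the tables are for GRCm38. Positions are 1-based.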

Additional observations from a re-analysis of the deposited data

How the results depend on the processing

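The share of bins with another class, 23.2%, was 23.5% with chromosome X added, 19.6% without domains under 5 kb, 23.9% without the 32 runs of int of at least 100 kb in all 3 maps, and 4.67% without bins within 4 kb of an edge of either map. It was 17.8% when both maps were smoothed over 22 kb, an alternative chosen after seeing the data. Windows called higher and lower, 4.57% and 7.16%, were 1.01% and 2.02% without bins near edges, 0.607% and 3.04% in windows of 5 Mb, and 0.728% and 1.82% past a difference of 0.5. In windows of 500 kb 7.22% were higher. Lower windows outnumbered higher ones in each of these settings. Of 31 alternative values, 17 stayed within the limits set. For the share of bins the limit was a 95% binomial interval, 23.09% to 23.23%, and all its alternatives fell outside. That interval treats bins as independent, which they are not. For all other values it was a factor of 1.5, applied to shares for windows. Reruns in 1 kb bins could not differ, as domain starts lie on the 2 kb grid, and stricter cut-offs can only lower a count. The tally is thus no measure of robustness. Domains missing from the other map numbered 8079 at 2 months and 19320 in the knockout, and 4038 and 8407 among domains of at least 10 kb. No paired analysis was possible because each list pools its samples. Leaving out a replicate was likewise not possible. With no signal in the lists, the depth behind a call is unknown.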
